A study of Mus musculus with 4 samples.

Results

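The cytosolic ribosomal protein genes encode the proteins of the large (Rpl) and small (Rps) ribosomal subunits, which join ribosomal RNA to form the ribosome of the cytoplasm. Members were chosen by symbol. Every gene whose probe sets carried only 1 symbol, of the form Rpl or Rps with a number, Rplp0 to Rplp2, or Rpsa, was taken. A gene with several probe sets was read by its brightest, judged on the mean of the 4 arrays. This gave 61 of the 19938 genes measured, 38 of the large and 23 of the small subunit. They were carried by 217 probe sets. Of 90 genes with such a symbol in the mouse RefSeq gene table, another 18 were named only by probe sets with several symbols and 11 by none of the probe sets in the platform's gene table, and these 29 are not analysed here by name.

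The cells came from the marrow of C57BL/6 mice in which the nestin promoter drives green fluorescent protein (Nes-gfp). They were sorted 10 weeks after marrow transplantation as positive for the reporter and free of CD45, CD31 and Ter119, the surface marks of leukocytes, endothelium and red cells. The 3 recipients of the MPN group (myeloproliferative neoplasm, a clonal overproduction of blood cells) had received marrow carrying a mutant JAK2 together with Mx1-cre, an interferon-inducible Cre transgene. The other recipient, also Nes-gfp, had received control marrow. Each array was taken as 1 mouse, and the reporter's host and the sort were the same in both groups. Xist, an RNA made in female cells, was high on every MPN array and low in the control. A difference of sex between the groups therefore cannot be told apart from the marrow received. With a single control mouse, the spread between control mice is unknown, and all p-values rest on the spread of the 3 MPN arrays.

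Ribosomal proteins are built into every ribosome, and their mRNAs are abundant in growing cells. These mRNAs start with a run of pyrimidines at the cap, through which the growth kinase mTOR and the RNA-binding protein Larp1 set how well they are translated. An array measures the amount of mRNA and not its translation. In marrow, loss of a copy of some of these genes is known to cause failure of red cell production, with activation of p53. Bulk sorted cells were measured, so fewer cells of a type and less RNA per cell cannot be told apart.

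Start regions are shown for members at both ends of the range of differences, to show what letters the members share beyond their names. RefSeq start regions (build GRCm38.p6) were at hand for 49 of the 61 members, and the windows run from 40 bases before the annotated start to 20 bases from it, 5′ to 3′. Capitals mark runs of at least 6 pyrimidines (C or T) within 20 bases on either side of the start, on the coding strand. Those with the largest differences and 1 annotated start were Rps10 (chr17:27635225-27635284, minus strand), Rpl12 (chr2:32961672-32961731, plus), Rps25 (chr9:44407674-44407733, plus), Rpl6 (chr5:121204461-121204520, plus), Rps13 (chr7:116334171-116334230, minus) and Rps3 (chr7:99483690-99483749, minus).
Rps10: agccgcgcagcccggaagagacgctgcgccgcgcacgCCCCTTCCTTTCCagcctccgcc
Rpl12: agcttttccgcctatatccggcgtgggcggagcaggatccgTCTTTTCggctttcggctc
Rps25: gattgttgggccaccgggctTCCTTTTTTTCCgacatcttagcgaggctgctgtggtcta
Rpl6: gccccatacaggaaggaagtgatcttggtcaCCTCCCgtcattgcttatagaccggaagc
Rps13: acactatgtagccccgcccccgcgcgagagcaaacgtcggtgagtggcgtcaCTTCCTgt
Rps3: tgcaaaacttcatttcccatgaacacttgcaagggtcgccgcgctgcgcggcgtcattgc

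From the low end of the range come Rpl27a (chr7:109519155-109519214, plus strand), Rps12 (chr10:23787190-23787249, minus), Rpl39l (chr16:10170188-10170247, plus) and Rpl7l1 (chr17:46782637-46782696, minus), where the first 3, with differences near 0, also hold such runs and Rpl7l1 holds none.
Rpl27a: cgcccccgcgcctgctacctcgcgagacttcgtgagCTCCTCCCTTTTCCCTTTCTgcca
Rps12: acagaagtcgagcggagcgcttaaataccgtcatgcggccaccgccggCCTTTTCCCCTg
Rpl39l: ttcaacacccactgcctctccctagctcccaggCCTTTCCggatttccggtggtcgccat
Rpl7l1: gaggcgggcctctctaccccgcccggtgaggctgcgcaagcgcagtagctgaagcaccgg

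A pyrimidine run of this length stood at 53.4% of the 58 annotated starts of members, against 37.5% of all 32851 starts in the table. Rps3 and Rpl7l1 had none in this window. The letters CGGAAG, the core that ETS factors bind, were searched on both strands in 300 bases around the start. They were found at 62.1% of the members' starts and at 16.9% of all starts. TATAAA, also on both strands, was found at 10.3% of the members' starts and 13.6% of all starts. These are matches of letters, with any overlap between the motifs left in. The median log2 difference between MPN and control was 0.41 over the 30 members with a pyrimidine run and 0.39 over the 19 without.

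On the deposited scale, most ribosomal protein genes lay slightly higher with MPN marrow, and they kept no lead over the median gene after repeated quantile normalisation. The median log2 difference of the MPN mean from the control was 0.40 over the 61 members and 0.18 over all 19938 genes, so the members lay 0.22 above the median gene. That lead was 0.14 without MPN mouse 3 and 0.34 with the dimmest probe set of each gene. All 3 MPN arrays lay above the control for 44 members (72.1%), where 46.8% of all genes did so. Only Rpl7l1 lay below the control on every MPN array, against 21.1% of all genes. Few differences were large. Just 1 member, Rpl8, was at least 2-fold higher on each MPN array (1.13% of all genes) and 0 were 2-fold lower (5.78%).

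No ribosomal protein gene passed limma's test after Benjamini-Hochberg adjustment over all genes, with 0 of 61 called and 0% of all genes. With cyclic loess 97 genes passed and with the shift to the receptor genes' median 153, none of them a member. The smallest adjusted p among members was 0.191. At an unadjusted p under 0.05, 9 members were higher (14.8% of members, 3.97% of all genes) and 1 was lower (1.64%, against 8.63%). The 9 were Rpl8, Rps13, Rpl24, Rps9, Rpl13, Rps29, Rpl9, Rplp1 and Rpl32l, and the 1 was Rpl7l1. Leaving out MPN mouse 1 left 3 higher (4.92%, against 2.13% of all genes). Leaving out MPN mouse 3 left 4, and the members' share of 6.56% then lay below the 8.98% of all genes. The 1 lower gene was lost without MPN mouse 2 or without MPN mouse 3. The mean of all probe sets of a gene gave 15 higher (24.6%, against 3.97%).

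The size of the shift depends on the scaling of the arrays. The members' median stayed above 0 under every scaling tried, but was 0.15 after repeated quantile normalisation, 0.06 after cyclic loess, and 0.14 after the arrays were shifted to one median of olfactory and vomeronasal receptor genes. Against the median gene, which moved to 0.01 with cyclic loess and to -0.08 with the receptor shift, the members lay 0.05 and 0.22 higher. After repeated quantile normalisation they lay below the median gene, by -0.04. The receptor genes, which serve smell and mark the background here, were themselves shifted on these arrays. Of 1180 such genes 71.3% lay above the control on every MPN array, with a median difference of 0.25.

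**Figure D1:**
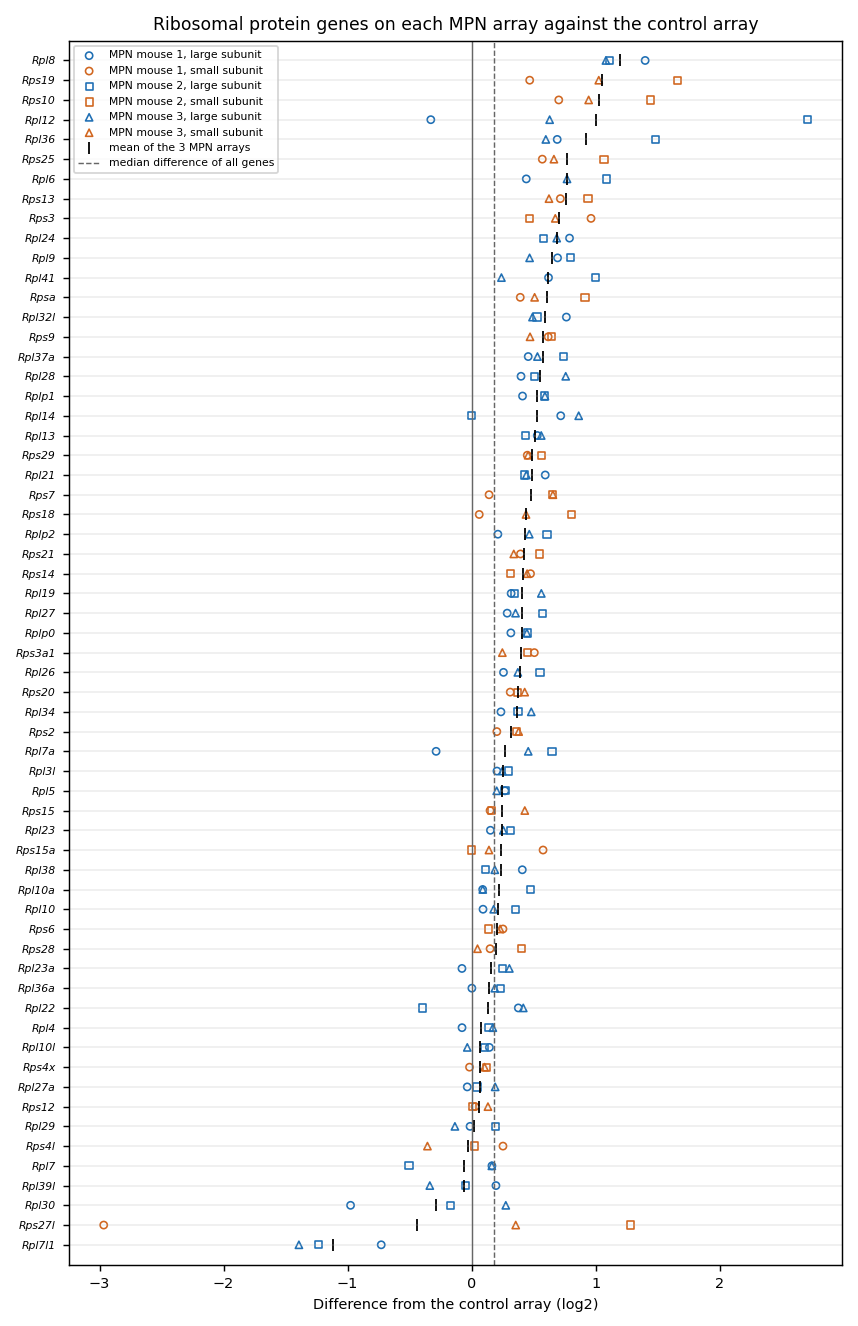
Log2 difference of each MPN array from the control array (x axis) for the 61 ribosomal protein genes (y axis, ordered by mean difference), with a symbol for each MPN mouse, blue for the large and orange for the small subunit, and a bar for the mean. As deposited, 44 genes have all 3 symbols right of 0, and the dashed line marks the median difference of all genes, 0.18. The members' median falls below the median gene after repeated quantile normalisation.

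The large subunit holds the peptidyl transferase centre, and its proteins gave the widest range. Rpl8, which lies near that centre, was at 11.03, 10.74 and 10.71 in MPN mice 1, 2 and 3 and at 9.63 in the control, all as log2 values. All 3 MPN mice lay over 1 log2 unit above the control, a difference of 1.20 (SE 0.21), or 2.29-fold, with limma adjusted p = 0.191. No other member had a smaller adjusted p.

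Rpl36 and Rpl6 were carried upward most by MPN mouse 2. Rpl36 was at 11.69, 12.49 and 11.60 against 11.00, and Rpl6 at 10.28, 10.92 and 10.61 against 9.84. The groups did not overlap, and the differences were 0.92 (SE 0.46) and 0.77 (SE 0.32). Rpl36 was read by 9 probe sets, whose differences all lay between 0.91 and 1.07, though probe sets of a gene are not independent.

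Rpl24, at the bridge between the subunits, was steady across MPN mice, at 11.90, 11.69 and 11.80 against 11.11 (difference 0.68, SE 0.17, limma adjusted p = 0.299). Rpl9 was at 11.47, 11.57 and 11.24 against 10.77, a difference of 0.65 (SE 0.21). Rpl13 was at 11.38, 11.29 and 11.42 against 10.86, a difference of 0.51 (SE 0.16). For these 3 genes the MPN mice differed from each other by less than they differed from the control.

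Other large subunit members went either way between mice. Rpl12, which lies at the base of the stalk, was at 4.94, 7.97 and 5.89 against 5.27, so the MPN mice surrounded the control. The difference of 1.00 had an SE of 1.38. MPN mouse 1 lay under the background limit of 5.21, the 95th percentile of the receptor genes, and the control was close to it. The Rpl12 difference therefore has no firm size. Rpl30 was at 5.24, 6.05 and 6.50 against 6.22, and Rpl22, known for its part in lymphocyte development, at 6.90, 6.12 and 6.94 against 6.52. Both groups overlapped. Rpl30 was also close to the background limit in MPN mouse 1. Rpl7 was at 10.56, 9.89 and 10.56 against 10.39, with MPN mouse 2 alone below the control, and its other 3 probe sets also averaged below the control. The difference of -0.06 for Rpl7 turned to 0.16 without MPN mouse 2.

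At the flat end stood Rpl27a, at 11.72, 11.80 and 11.95 against 11.76, and Rpl29, at 8.85, 9.06 and 8.73 against 8.87. Neither differed beyond the spread of the MPN mice, and both turned negative under the 3 rescalings named above. Rpl5, which with Rpl11 binds Mdm2 when ribosome assembly fails, was at 11.70, 11.70 and 11.63 against 11.43, a difference of 0.25 (SE 0.15). Its 5 probe sets gave 0.25 to 0.62, and the difference turned to -0.09 after repeated quantile normalisation and cyclic loess and to -0.01 with the receptor shift.

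The stalk proteins Rplp0, Rplp1 and Rplp2, which recruit the translation factors, all lay higher on the deposited scale. Rplp0 was at 11.77, 11.90 and 11.90 against 11.45, Rplp1 at 11.02, 11.20 and 11.21 against 10.61, and Rplp2 at 8.40, 8.79 and 8.65 against 8.18. Each MPN array lay above the control for all 3 genes. The differences were 0.40 (SE 0.16), 0.53 (SE 0.17) and 0.43 (SE 0.23). After repeated quantile normalisation they lay apart, at 0.09, 0.18 and 0.59.

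The small subunit decodes the mRNA. Rps10 was at 10.52, 11.26 and 10.77 against 9.82, a difference of 1.03 (SE 0.37). Its other probe sets, which are not independent of this one, gave up to 1.11. Rps19, the gene most often affected in Diamond-Blackfan anaemia, was at 9.06, 10.25 and 9.62 against 8.59. All MPN mice were above the control for both genes and MPN mouse 2 was the highest. For Rps19 the mice lay far apart, and its difference of 1.05 had an SE of 0.55.

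Rps13 was at 10.78, 11.01 and 10.69 against 10.07 and had a limma adjusted p of 0.321, the smallest of the small subunit. Rps25 was at 11.57, 12.06 and 11.66 against 11.00, and Rps3, at the mRNA entry channel, at 10.61, 10.12 and 10.32 against 9.65. The 3 differences were 0.76 (SE 0.20), 0.77 (SE 0.28) and 0.70 (SE 0.26). In each gene the lowest MPN mouse still stood above the control.

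Rps9 was at 11.52, 11.54 and 11.37 against 10.90, and Rps29 at 12.71, 12.83 and 12.72 against 12.26, both with little spread among MPN mice. Rpsa, also known as the laminin receptor, was at 11.47, 11.99 and 11.58 against 11.07 (difference 0.60, SE 0.28). Rps14, whose loss is known from a myelodysplastic syndrome, was at 12.64, 12.47 and 12.61 against 12.16. Its difference was 0.41 (SE 0.16) here and 0.90 on its other probe set. Rps12 was at 12.87, 12.85 and 12.97 against 12.84 and gave a difference of 0.06, which turned negative with cyclic loess and the receptor shift.

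The other 25 members, given here by their range, had differences from 0.08 to 0.62, with an SD over MPN mice from 0.06 to 0.49. All 3 MPN arrays lay above the control for 20 of these, and for the other 5, Rpl14, Rpl7a, Rps15a, Rpl23a and Rpl4, at least 1 MPN array did not.

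The median difference was 0.38 over 38 large and 0.41 over 23 small subunit members, a gap of -0.03, which was not tested. The gap was -0.01 without MPN mouse 1, -0.05 without mouse 2 and -0.08 without mouse 3. Against the control, the large subunit median was 0.26, 0.40 and 0.39 on the arrays of MPN mice 1, 2 and 3, and the small subunit median was 0.39, 0.47 and 0.43. The large subunit was thus lower on each array, by -0.13, -0.07 and -0.03, and these 3 gaps had an SD of 0.05. Without the 7 copy genes described next the gaps were -0.11, -0.03 and 0.00. All MPN arrays lay above the control for 25 of 38 large (65.8%) and 19 of 23 small subunit members (82.6%), beside 46.8% of all genes.

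**Figure D2:**
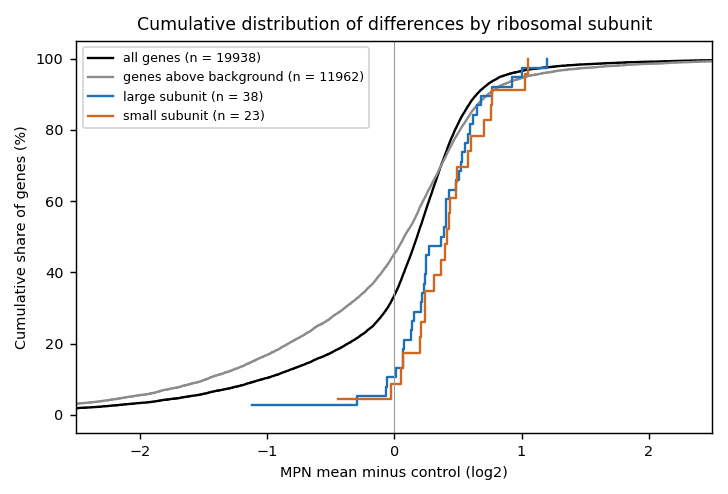
Cumulative share of genes (y axis, percent) by log2 difference of the MPN mean from the control (x axis, drawn from -2.5 to 2.5) for all genes, genes above background, and both ribosomal subunits. As deposited, the curves of the subunits nearly coincide, with medians of 0.38 and 0.41, and hold few genes left of 0, whereas all genes spread to both sides around 0.18.

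The set holds 7 genes named as copies of other ribosomal protein genes. They were Rpl3l, Rpl7l1, Rpl10l, Rpl32l, Rpl39l, Rps4l and Rps27l, with a median difference of -0.03 against 0.41 over the other 54 members. Rpl3l, a copy used in striated muscle, and Rpl10l and Rpl39l, copies used in the testis, lay under the background limit of 5.21 in both groups. That limit is the 95th percentile of the receptor genes. Rpl3l was at 4.92, 5.01 and 4.96 against 4.71, Rpl10l at 4.70, 4.66 and 4.52 against 4.56, and Rpl39l at 3.89, 3.65 and 3.36 against 3.70, where differences have no firm size. The parent Rpl10 was at 11.34, 11.61 and 11.43 against 11.25.

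Rpl7l1, a relative of Rpl7, was at 5.81, 5.31 and 5.15 against 6.54, the lowest difference of any member, -1.12 (SE 0.34, limma adjusted p = 0.365). MPN mice 2 and 3 were close to the background limit, whereas Rpl7 itself was level. Rps27l, a copy of Rps27 that p53 is known to induce, was at 5.40, 9.64 and 8.72 against 8.36. MPN mouse 1 was close to background, and mice 2 and 3 were above the control. The SD of 2.23 was the largest of any member, and the mean difference of -0.44 turned to 0.82 without MPN mouse 1. Rpl32l was at 9.17, 8.93 and 8.89 against 8.40, a difference of 0.59 (SE 0.20). Rps4l was at 6.29, 6.06 and 5.69 against 6.04, so the MPN mice lay on both sides of the control.

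The X-linked members Rpl10, Rpl36a and Rps4x had a median difference of 0.14, below the median gene. Rpl36a was at 11.94, 12.17 and 12.13 against 11.94, and Rps4x at 11.91, 12.05 and 12.03 against 11.93. The lowest MPN mouse lay at the control for Rpl36a and below it for Rps4x, and all 3 genes turned negative under the 3 rescalings, at most to -0.28. Xist, the noncoding RNA that silences an X chromosome in female cells, read 8.37, 9.31 and 9.22 against 3.30. The control value lay under the background limit of 5.21. Sex and group cannot be told apart on these arrays, for X-linked or other genes. The part of Xist or of sex in these values was not tested.

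Probe sets of a gene mostly pointed the same way on the deposited scale but differed in size. Of 39 members with several probe sets, all probe sets averaged above the control in 36, below it in 1 (Rpl7), and went both ways in 2 (Rpl27a and Rps4l). Of all 217 probe sets 207 were higher on the MPN mean and 173 on each MPN array, where 45.0% of all probe sets on the array were so. They are not independent, since 19 of them hold the same values as another of their gene. Whether the rest read separate transcripts was not tested, so agreement between probe sets is no repeat of a result. In 34 of the 39 members the dimmest probe set had a larger difference than the brightest, the one used here. The median over these 39 was 0.41 with the brightest and 0.62 with the dimmest. Rps9 gave 0.58 with the brightest and 1.22 with the dimmest, Rps15 0.24 and 1.09, and Rpl7a 0.27 and 1.35. In contrast Rps13 gave 0.76 with both, and Rpl41 0.62 with 3 probe sets of equal values. The cause of these sizes was not tested.

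**Figure D3:**
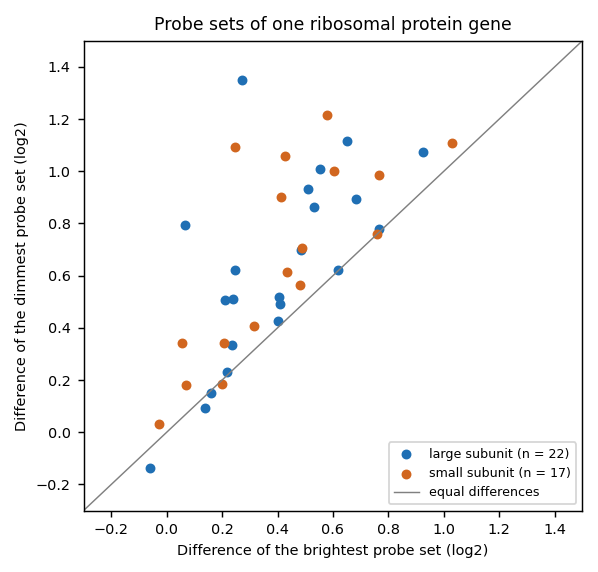
Log2 difference of the MPN mean from the control for the brightest (x axis) and the dimmest probe set (y axis) of the 39 ribosomal protein genes with several probe sets, coloured by subunit, with the line of equal differences, all on the deposited scale. In 34 genes the point lies above the line, and the medians are 0.41 and 0.62.

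The MPN mice also differed among themselves. MPN mouse 2 had the highest value for 30 of 61 members (49.2%) and for 39.0% of all genes. MPN mouse 1 had the lowest for 33 members (54.1%, against 24.2% of all genes), whereas mouse 3 had the lowest for 52.7% of all genes and 26.2% of members. The median difference from the control was 0.29, 0.43 and 0.43 for the members on the arrays of mice 1, 2 and 3, and 0.20, 0.21 and 0.08 for all genes. The members therefore exceeded the median gene most on the array of mouse 3, where 55 of 61 lay above that array's median difference, against 39 and 44 on the arrays of mice 1 and 2. The median SD of a member over the MPN mice was 0.16, and that of all genes was 0.23.

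Fau, which encodes a further small subunit protein outside the symbol rule, was at 10.77, 11.08 and 10.96 against 10.04, a difference of 0.90 (SE 0.20). Elongation factors and related genes had a median of 0.35 over 9 of 10 listed genes. Of these, 6 lay above the control on each MPN array (66.7%, against 46.8% of all genes). Eef1b2, a subunit of the elongation exchange factor, was at 11.03, 11.04 and 10.88 against 9.97, while Eef1a1, the factor that carries transfer RNA, was level at 12.06, 12.03 and 12.01 against 11.95, and Tpt1 differed by -0.01. Initiation factors had a median of -0.04 over 32 of 37. At an unadjusted p under 0.05, 1 gene, Eif5 (0.77, SE 0.15), was higher (3.1%, against 3.97% of all genes) and 0 were lower. On each MPN array 6 lay above the control (18.75%, against 46.8% of all genes) and 4 below (12.5%, against 21.1%). The lowest were Eif4h at -2.36 (SE 2.47) and Eif4a2 at -1.07 (SE 0.87), and the highest was Eif3h at 0.82 (SE 0.38).

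Of 36 ribosome biogenesis genes 35 were measured, with a median of -0.10. At an unadjusted p under 0.05, 6 of them were lower (17.1%, against 8.63% of all genes) and 0 higher. Rrs1, an assembly factor of the large subunit, was at 5.29, 5.98 and 6.23 against 8.70 (difference -2.88, SE 0.46), and Nmd3, the export adaptor of the large subunit, differed by -2.44 (SE 0.63). Noc3l differed by -2.24 (SE 0.24). Tsr1, Wdr75 and Gnl2, chosen after their values were seen, differed by -2.24, -1.85 and -1.53. None passed the adjusted test. Noc3l and Gnl2 lay under the background limit of 5.21 on every MPN array and above it in the control, so their differences have no firm size. Tsr1 lay under that limit in MPN mice 1 and 2, at 5.05 and 5.19. Rrs1, Nmd3 and Wdr75 came close to it, at 5.29, 5.34 and 5.40 on their lowest MPN array. The sizes for Tsr1, Rrs1, Nmd3 and Wdr75 are therefore not firm either. Fibrillarin, Fbl, was at 9.51, 8.47 and 7.30 against 7.66.

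The RNA polymerase I list, for ribosomal RNA synthesis, had a median of -0.02 over 14 genes and none past the unadjusted threshold. Ubtf, its upstream binding factor, was at 7.15, 6.63 and 7.32 against 7.93. Growth signalling genes had a median of -0.01 over 14 of 15. Myc, which drives ribosome production, was at 4.66, 6.89 and 6.18 against 7.58 (difference -1.67, SE 1.02). Mycn was higher by 0.93 (SE 0.25), at 5.33, 5.44 and 4.99 against 4.33. These values lie around or under the background limit of 5.21, where differences have no firm size. Tsc1, Rptor and Akt1, the last chosen after its values were seen, differed by -0.84, -0.75 and -0.70. On the MPN arrays Tsc1 was close to that limit, at 5.38, 5.26 and 5.16. At an unadjusted p under 0.05 the list thus had 1 gene higher (7.14%, against 3.97% of all genes) and 3 lower (21.4%, against 8.63%). Genes of the p53 response had a median of -0.62 over 9 of 12, and 0 were higher and 2 lower at that threshold (22.2%, against 8.63% of all genes). Mitochondrial ribosomal proteins, which build the separate ribosome of mitochondria, had a median of 0.02 over 77 genes. On each MPN array 15 lay above the control (19.5%, against 46.8% of all genes) and 18 below (23.4%, against 21.1%). Mrpl34 was highest at 1.36 (SE 0.57) and Mrpl42 lowest at -2.70 (SE 2.49).

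**Figure D4:**
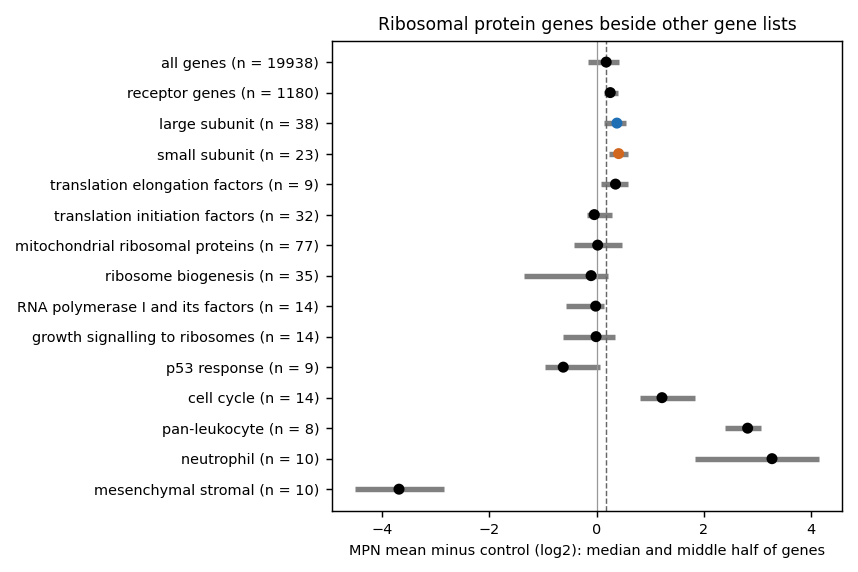
Median (point) and interquartile range (bar) of the log2 difference of the MPN mean from the control for each gene list, with the number of genes measured and a dashed line at the all-gene median of 0.18. As deposited, both subunits lie at 0.38 and 0.41, near the receptor genes at 0.25, while leukocyte lists lie far above and stromal genes far below.

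The arrays also differed in the cells they reported. Nes lay under the background limit on all arrays, at 4.56, 3.92 and 4.26 against 4.26. The mean level of 10 stromal markers was 5.44 to 6.40 in the MPN mice and 9.56 in the control, with 9 of 10 below the control on each MPN array. The mean of 8 pan-leukocyte markers was 8.82 to 9.68 against 6.57, with 7 of 8 above on each array, and that of 10 neutrophil markers 10.70 to 11.35 against 8.06, with 10 of 10 above. Ptprc, the gene of the CD45 protein selected against, was at 10.16, 9.46 and 10.40 against 7.07. Cell cycle genes had a median difference of 1.22 over 14 of 15, with 13 above on each array. Of all genes 46.8% lay above and 21.1% below the control on each MPN array. Markers of B cells (6 of 7 measured), red cells (5 of 8) and endothelium (5 of 5) had medians of -0.05, 0.40 and 0.34. Only 3 of the 5 red cell and 2 of the 5 endothelial markers passed the background limit. Of the 6 B cell markers 2 lay above the control on each MPN array, 1 below and 3 did neither. Ebf1, the 1 below, was at 5.04, 5.16 and 4.59 against 9.27, and Vpreb1 at 4.36, 11.26 and 4.80 against 9.64. The part of these cells in the ribosomal protein values was not tested.

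**Figure D5:**
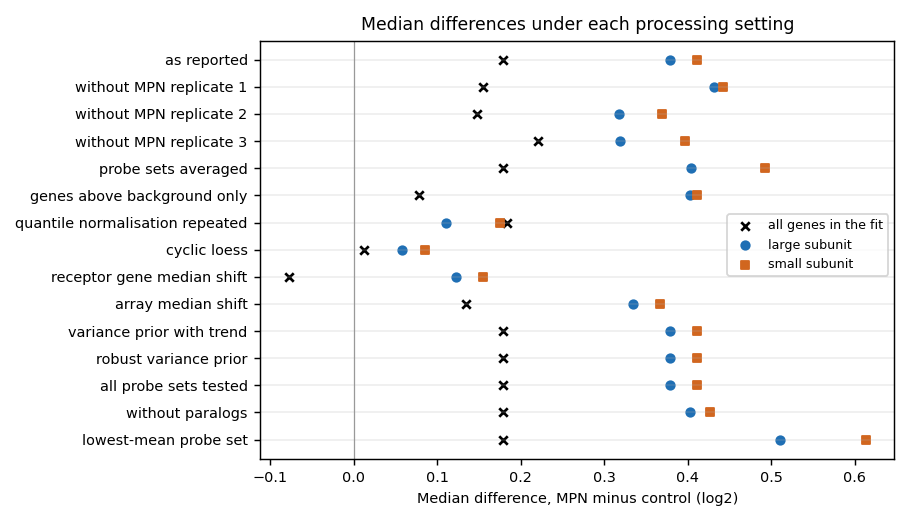
Median log2 difference of the MPN mean from the control (x axis) for all genes in the fit, large subunit and small subunit genes under each processing setting (y axis). The subunit medians stay above 0 throughout, from 0.06 for the large subunit with cyclic loess to 0.61 for the small subunit with the lowest-mean probe set, and both lie left of all genes after repeated quantile normalisation.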

How the data were processed

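Total RNA of sorted cells was amplified with the NuGEN Ovation system and hybridised to Affymetrix mouse gene arrays, per the labels' protocols and design text. The deposited log2 values come from RMA, which the authors ran per the submitters' processing notes. RMA subtracts background, quantile normalises the arrays and summarises probes, and it can compress differences. For its version, the probe set definitions and a build: not given in the sources used here. Precision is limited by the number of arrays, 4.

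Genes came from the platform's gene table, with 1 symbol for 21789 of 35556 probe sets, several for 1621 and none for 12146. Groups were compared over 19938 genes with limma 3.58.1 in R 4.3.3 (lmFit, eBayes, two-sided, Benjamini-Hochberg over all genes, threshold 0.05). Its 2 residual degrees of freedom come from the MPN mice, and the control was assumed to vary like them. SE is from this fit, and SD is over the 3 MPN arrays. The fit was also run on simulated data in which the control varied like the MPN mice, so that run cannot check this assumption. Where a list is counted, n is the genes measured. Members and lists were chosen with earlier results of these data known. Named members were those with the 10 highest and the 10 lowest differences, some of the latter slightly above 0. Also named were copies with their parents, stalk genes, Rpsa, X-linked members, Rps14, Rps19 and Rpl5, and any with an unadjusted p under 0.05. Of other lists up to 3 in each direction were open to naming. Genes most alike in pattern were not sought, since 4 arrays are too few for a correlation. Alternatives are listed in the closing section. The probe set with the lowest mean was chosen after seeing the data.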

Additional observations from a re-analysis of the deposited data

Results flagged for a closer look

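Probe sets that carry several symbols, 1 of them a ribosomal protein gene, were outside the comparisons because they name no single gene. There were 239, which name 37 such genes between them, 18 of which have no probe set of their own. Their median log2 difference between MPN and control was 0.487, with a range from -0.89 to 1.24. Of the 239, 211 lay above the control on each MPN array, where 45.0% of all probe sets did so. No outlier check was made, since the groups hold 3 arrays and 1.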

How the results depend on the processing

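Alternatives were each MPN mouse left out, probe sets averaged, genes above background only, repeated quantile normalisation, cyclic loess, a shift to the receptor genes' median, a shift to the array median, a trended or robust variance prior, all probe sets tested, members without copies and, chosen after seeing the data, the lowest-mean probe set. No member passed the adjusted test under any of these. Of all genes 97 passed with cyclic loess, 153 with the receptor shift and 0 otherwise. The members' median difference, 0.40 as reported, was 0.148 with repeated quantile normalisation, 0.0593 with cyclic loess, 0.144 with the receptor shift and 0.520 with the lowest-mean probe set. Less the all-gene median it was -0.0355 with repeated quantile normalisation and 0.0473 with cyclic loess, and it ranged from 0.137 without MPN mouse 3 to 0.278 without mouse 1. It was 0.326 with genes above background only, whose own median was 0.0785, and 0.341 with the lowest-mean probe set. In the 4 settings given for the median difference, the large subunit median was 0.110, 0.0572, 0.122 and 0.510, and the small subunit median 0.176, 0.0849, 0.155 and 0.613. The small subunit median was 0.493 with probe sets averaged, 0.367 with the array median shift, and 0.369 to 0.442 with a mouse left out. Large minus small, -0.0324 as reported, was -0.0891 with probe sets averaged, -0.103 with the lowest-mean probe set, and -0.0772 to -0.0107 with a mouse left out. Members higher at an unadjusted p under 0.05, 9 as reported, numbered 15 with probe sets averaged or the lowest-mean probe set, 3 above background or with a trended prior, 5 with a robust prior, 4 with all probe sets tested, 1 with repeated quantile normalisation or cyclic loess, 2 with the receptor shift, and 3 to 6 with a mouse left out. The members' share lay below that of all genes without MPN mouse 3 (6.56% against 8.98%), with a trended prior (4.92% against 5.20%), with repeated quantile normalisation (1.64% against 4.00%) and with cyclic loess (1.64% against 2.44%). It lay above in the other settings, as with the receptor shift (3.28% against 1.45%). Lower members numbered 0 with repeated quantile normalisation or without copies and 0 to 1 with a mouse left out. Members above the control on each MPN array numbered 29 with repeated quantile normalisation (47.5%, against 48.8% of all genes), 23 with cyclic loess (37.7%, against 31.4%) and 26 with the receptor shift (42.6%, against 22.6%). The cause was not tested.

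Signs turned for genes near 0. With the receptor shift, Rpl3l was -0.00633, Rpl5 -0.00987, Rpl10 -0.0479, Rpl36a -0.117, Rpl22 -0.124, Rpl10l -0.187, Rps4x -0.188, Rpl27a -0.191, Rps12 -0.200 and Rpl29 -0.241. With repeated quantile normalisation, Rpl5 was -0.0852, Rpl10 -0.137, Rpl36a -0.119, Rps4x -0.192, Rpl27a -0.214, Rpl29 -0.0120 and Rps4l 0.128. With cyclic loess, Rpl5 was -0.0870, Rpl10 -0.114, Rpl36a -0.218, Rpl10l -0.139, Rps4x -0.285, Rpl27a -0.279, Rps12 -0.346 and Rpl29 -0.190. With the array median shift Rpl29 was -0.0292, and Rps4l was 0.00236 with probe sets averaged and 0.0324 with the lowest-mean probe set. With a mouse left out, Rpl29 ranged from -0.0739 to 0.0906, Rps4l from -0.168 to 0.137, Rpl7 from -0.171 to 0.163, Rpl30 from -0.575 to 0.0512, Rps27l from -1.31 to 0.817, Rpl22 from -0.00971 to 0.396 and Rpl39l from -0.192 to 0.0745. No paired analysis was possible because the groups share fewer than 2 replicate numbers.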
